A study of Mus musculus with 12 samples.

Results

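The aryl hydrocarbon receptor pathway was followed over 6 genes in rectal RNA of mice with chemically induced colitis, with and without berberine (BBR), an alkaloid from medicinal plants. The genes were taken by symbol from the 17734 genes of the expression table, and all 6 were found: Ahr, its partner Arnt, its repressor Ahrr, and the target genes Cyp1a1, Cyp1b1 and Tiparp. RNA was sequenced from 12 adult male C57BL/6 mice, 3 in each of 4 groups, and no engineered allele is named for any of them. Normal mice drank water, and colitis mice drank dextran sulfate sodium (DSS), a polymer that injures the bowel lining, for 7 days. In the remaining groups, normal mice receiving BBR and colitis mice that drank DSS and received BBR, the compound was given by gavage, for 6 days by the sample labels and until day 7 by the study's methods. The labels call the tissue colorectum and the methods rectum. All values are per piece of bulk tissue, so that fewer cells of a type and less RNA per cell cannot be told apart.

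The aryl hydrocarbon receptor is a ligand-activated transcription factor of the bHLH-PAS family, which waits in the cytosol in a complex with chaperones. Pollutants, plant indoles and tryptophan products made by the host and by gut microbes bind it, and it then enters the nucleus and pairs with Arnt on a short DNA core, GCGTG. Its classic targets are the monooxygenases Cyp1a1 and Cyp1b1, which break down its ligands, and the genes Ahrr and Tiparp, whose products dampen the receptor. In the bowel it is known for its roles in epithelial cells and in the lymphoid cells that make interleukin 22.

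The proximal promoters of the target genes are shown because each holds the letters of this core at least once. Whether the receptor and Arnt bind these copies was not tested, and sites further than 250 bases upstream were not searched. The sequences are from RefSeq on build GRCm38.p6, whereas the deposited values were made on mm9, so these positions are those of the reference only. Promoter windows of 5 of the 6 members were matched by symbol, and Ahr was not among them. Each window runs from 250 bases before to 50 after the RefSeq start. Both strands were searched, and the core stands in capitals below, as CACGC where it lies on the opposite strand. Each stretch is 130 bases long, written 5′ to 3′ on the strand of the gene, and lies upstream of the start.
Ahrr (chr13:74292332-74292461, minus strand): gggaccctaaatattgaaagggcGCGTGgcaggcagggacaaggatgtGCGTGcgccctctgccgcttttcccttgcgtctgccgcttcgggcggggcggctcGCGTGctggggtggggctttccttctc
Cyp1a1 (chr9:57697483-57697612, plus strand): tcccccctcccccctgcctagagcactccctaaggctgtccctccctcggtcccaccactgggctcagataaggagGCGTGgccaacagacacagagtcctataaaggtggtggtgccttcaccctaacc
Cyp1b1 (chr17:79715062-79715191, minus strand): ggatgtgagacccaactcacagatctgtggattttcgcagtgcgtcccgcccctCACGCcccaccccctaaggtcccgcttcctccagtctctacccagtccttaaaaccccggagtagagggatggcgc
Tiparp (chr3:65528247-65528376, plus strand): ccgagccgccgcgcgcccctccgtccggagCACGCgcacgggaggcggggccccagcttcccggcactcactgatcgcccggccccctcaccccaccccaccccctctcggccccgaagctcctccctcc

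The Ahrr window held 3 copies of GCGTG, at positions -107, -82 and -27 from the start. The windows of Arnt (position -29), Cyp1a1 (-54), Cyp1b1 (-76) and Tiparp (-170) held 1 copy each. Of 32851 mouse promoter windows of this length, 32.4% held the core at least once and 3.92% held it 3 or more times. The longer form TNGCGTG was found once in Ahrr and in none of the other 4 windows, against 5.07% of all windows. The same 5 letters also lie within the sites used by Arnt with the hypoxia-inducible factors, and a match of letters is a description of the window and not a bound site.

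Each value is read as FPKM, reads scaled by transcript length and by library size, and no table of counts was used here. The 4 mice numbered 4, 1 in each group, stood apart from the other 8: their values summed to 482194 to 504337 against 696286 to 765876, and 872 to 1086 genes were at 0 in them against 1332 to 1926. Their libraries were also the deeper ones: estimated from the smallest values of 1501 genes that have 1 transcript each, 3 reads on the longest Ahrr transcript were worth 0.0303 to 0.0342 FPKM in them and 0.0428 to 0.0454 FPKM in the other 8. The labels name no batch, and results are therefore also given for the mice numbered 4 and for the others apart. Epithelial markers such as Epcam and Krt8 were high in all 12 mice, with the 7 markers summing to 4546 to 8212 FPKM, and 7 markers of squamous epithelium to 1.28 to 8.12 FPKM. Smooth muscle markers differed between the pieces of tissue, and mouse 4 of the colitis mice receiving BBR had 3821 FPKM over 7 such markers against 561 and 603 in the other mice of its group.

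Over the 12 mice, the members differed widely in level. Arnt had the highest mean (10.9 FPKM), followed by Tiparp (8.95), Ahr (3.37), Ahrr (0.288), Cyp1a1 (0.0958) and Cyp1b1 (0.0683). Arnt was above Tiparp in 9 of 12 mice and Cyp1a1 above Cyp1b1 in 6 of 12, so that the order within these pairs did not hold in every mouse. The steps from Tiparp to Ahr, from Ahr to Ahrr and from Ahrr to Cyp1a1 held in 12 of 12 mice. Arnt, the shared partner, was thus listed at 2.88 ± 0.145 times the level of Ahr in normal mice (SD, n = 3).

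**Figure D1:**
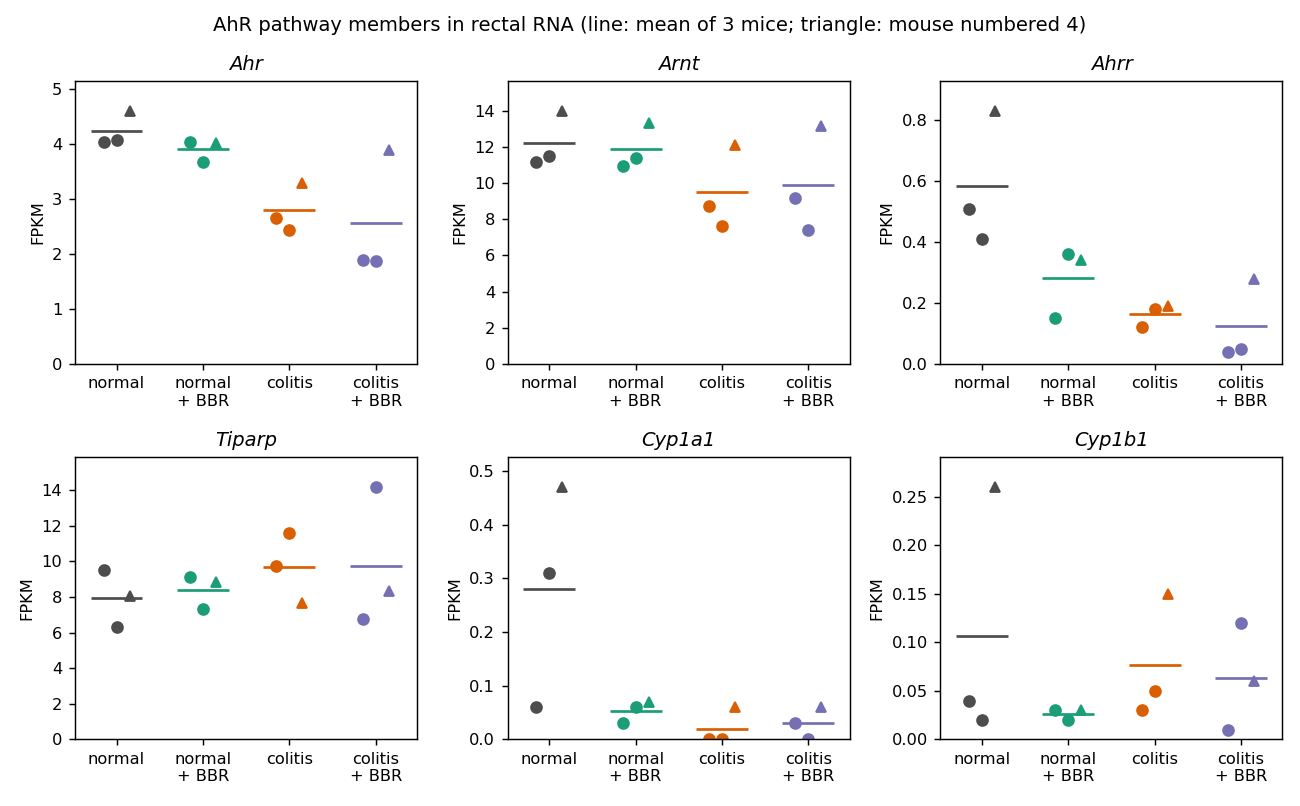
Level of each member in FPKM (vertical axis, linear and from 0) in the 4 groups, with 1 point per mouse, a line at the mean of 3 mice and a triangle for the mouse numbered 4. The colitis mice lie below all normal mice for Ahr (2.44 to 3.28 against 4.03 to 4.59) and for Ahrr (0.12 to 0.19 against 0.41 to 0.83), whereas the groups overlap for Arnt, Tiparp, Cyp1a1 and Cyp1b1.

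Colitis mice were compared with normal mice to see where the pathway stood in the injured bowel. The receptor and its repressor were lower in all colitis mice, with no overlap between the groups, whereas the partner and the target Tiparp overlapped. None of these differences passed the limit of 0.05 on the adjusted p. Cyp1a1 and Cyp1b1 lay so low that they fell under the filter of a mean of 0.1 FPKM, and 4 of the 6 members were tested.

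Ahr, the receptor itself on chromosome 12, was at 4.03, 4.06 and 4.59 FPKM in normal mice. In colitis mice it was at 2.65, 2.44 and 3.28 FPKM. The highest colitis mouse lay below the lowest normal mouse, and in both groups the mouse numbered 4 was the highest. The means were 4.23 ± 0.315 and 2.79 ± 0.437 FPKM (SD, n = 3 each), and the exact two-sided permutation test gave p = 0.1, the smallest that 3 mice against 3 allow. On the log2(FPKM + 0.1) scale, where changes of low genes come out too small, the difference was -0.59 with a standard error of 0.30 (95% interval -1.24 to 0.05, adjusted p = 0.261 by limma with Benjamini-Hochberg adjustment over 15315 genes). The median of all tested genes stood at -0.32 in this comparison, and Ahr lay 0.27 below that median.

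Ahrr, which competes with the receptor for Arnt and represses its targets, had the largest difference among the tested members on the log2(FPKM + 0.1) scale. With a pseudocount of 1 the difference of Ahr was the larger, at -0.47 against -0.44. Ahrr was at 0.51, 0.41 and 0.83 FPKM in normal mice and at 0.12, 0.18 and 0.19 FPKM in colitis mice. No colitis mouse reached the lowest normal mouse, and the order was the same among the mice numbered 1 to 3 (0.12 and 0.18 against 0.41 and 0.51) and among those numbered 4 (0.19 against 0.83). The difference was -1.34 with a standard error of 0.46 on the log2(FPKM + 0.1) scale (95% interval -2.34 to -0.34), with an adjusted limma p of 0.140 and an exact permutation p of 0.1 (n = 3 each). With a block for the mice numbered 4, the same difference had an adjusted p of 0.0401 by limma, where 9.22% of all tested genes passed. With the replicate number as a block it had an adjusted p of 0.0942, where 4.79% passed, and over all alternatives the adjusted p ran from 0.0401 to 0.327. The ratio of Ahrr to Ahr was 0.136 ± 0.0408 in normal mice and 0.0590 ± 0.0143 in colitis mice (SD, n = 3 each), the ranges being 0.101 to 0.181 and 0.0453 to 0.0738.

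Arnt, on chromosome 3, is also the partner of the hypoxia-inducible factors. It was at 11.18, 11.49 and 13.99 FPKM in normal mice and at 8.76, 7.63 and 12.14 FPKM in colitis mice. The groups overlapped through the mouse numbered 4 of the colitis group. Among the mice numbered 1 to 3 the colitis mice lay below the normal mice, and so did the colitis mouse among those numbered 4 (12.14 against 13.99). The exact permutation test gave p = 0.3 (n = 3 each). The fitted difference of -0.38 (95% interval -0.92 to 0.16, adjusted p = 0.368 by limma) was close to the median of all tested genes.

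Tiparp, a mono-ADP-ribosyltransferase that damps the receptor, had the only fitted difference above 0 among the tested members. It was at 9.49, 6.31 and 8.06 FPKM in normal mice and at 9.73, 11.60 and 7.68 FPKM in colitis mice. The groups overlapped, with both colitis mice numbered 1 to 3 above the normal mice of these numbers and the colitis mouse numbered 4 below its normal counterpart. The difference was 0.28 (95% interval -0.35 to 0.90, adjusted p = 0.557 by limma), with an exact permutation p of 0.4 (n = 3 each). Tiparp thus stood 0.60 above the median of all tested genes, and Ahrr 1.02 below it, on the log2(FPKM + 0.1) scale.

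Cyp1a1, the best known target gene, was at the edge of detection. It was listed at 0.06, 0.31 and 0.47 FPKM in normal mice and at 0, 0 and 0.06 FPKM in colitis mice. A level of 3 reads was worth 0.0578 to 0.0867 FPKM for its longest transcript, and 4 of the 12 mice lay above that floor. The values of the normal mice came to an estimated 2.15 to 23.3 reads, and those of the colitis mice to 0, 0 and 3.12 reads, so that the groups touched at 0.06 FPKM and the exact permutation test gave p = 0.2 (n = 3 each). No fold is given, since all colitis mice were at or near the floor. These floors and read numbers are estimates that cover counting error only.

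Cyp1b1, the other monooxygenase induced by the receptor, was listed at 0.04, 0.02 and 0.26 FPKM in normal mice and at 0.03, 0.05 and 0.15 FPKM in colitis mice. The high value of each group belonged to the mouse numbered 4. The groups overlapped throughout, with an exact permutation p of 0.9 (n = 3 each), and 5 of the 12 mice lay above the floor of 3 reads (0.0301 to 0.0452 FPKM). A difference in Cyp1b1 was not detectable at this depth.

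Of the 4 tested members, 0 passed the adjusted limit of limma in colitis against normal mice, where 1.08% of all tested genes passed. At the study's limit, an unadjusted P of at most 0.05, Ahrr was lower, which is 1 of 4 members against 15.9% of all tested genes lower and 21.4% in either direction. The 2 members that did not overlap, Ahr and Ahrr, compare with 22.2% of all tested genes that were lower without overlap and 29.3% in either direction. When the values were quantile normalized, which brought the median of all genes to -0.05, the differences were -0.21 for Ahr, -0.96 for Ahrr, -0.10 for Arnt and 0.56 for Tiparp. The signs of these 4 differences did not turn under that scaling.

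**Figure D2:**
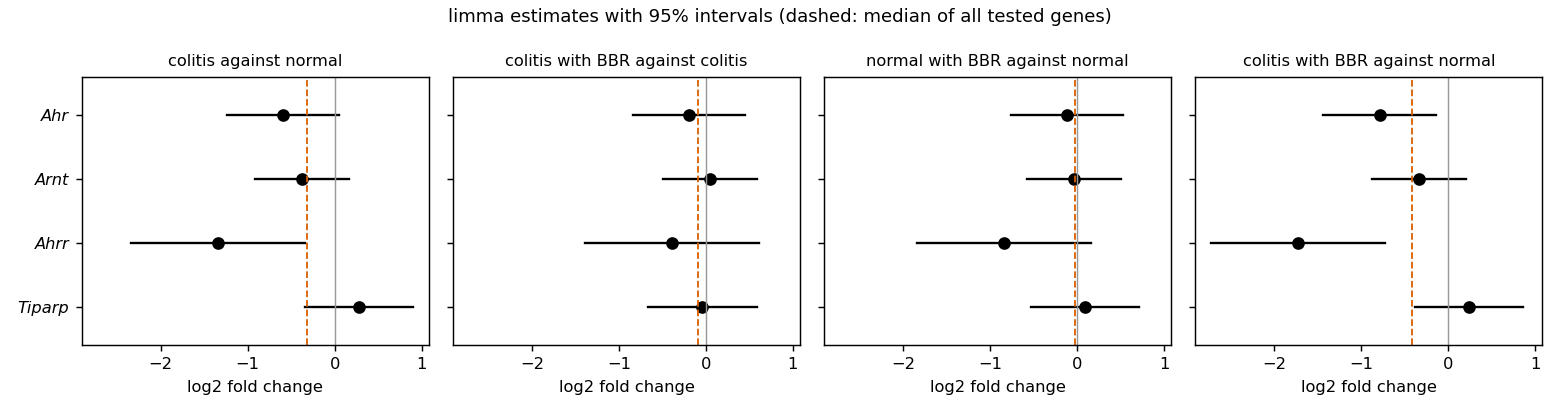
Fitted difference in log2(FPKM + 0.1) (horizontal axis) of the 4 tested members in 4 comparisons, with points for the limma estimate, bars for its 95% interval and a dashed line at the median of all tested genes. The interval of Ahrr lies below 0 in colitis against normal mice (-2.34 to -0.34) and in colitis mice receiving BBR against normal mice (-2.73 to -0.73), and that of Ahr in the latter comparison (-1.43 to -0.14).

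Several kinds of tissue marker moved with these differences. The 7 smooth muscle markers summed to 1971 to 3498 FPKM in normal mice and to 89.7 to 800 FPKM in colitis mice, and the 5 endothelial markers to 20.9 to 22.6 against 6.3 to 16.7 FPKM. Neutrophil markers, among them S100a8 and S100a9, summed to 0.26 to 2.03 FPKM in normal mice and to 45.0 to 492 FPKM in colitis mice, and macrophage markers to 156 to 201 against 259 to 786 FPKM. The 7 epithelial markers overlapped, at 5709 to 8212 against 5325 to 7807 FPKM. The part of these markers in the lower Ahr and Ahrr was not tested.

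**Figure D3:**
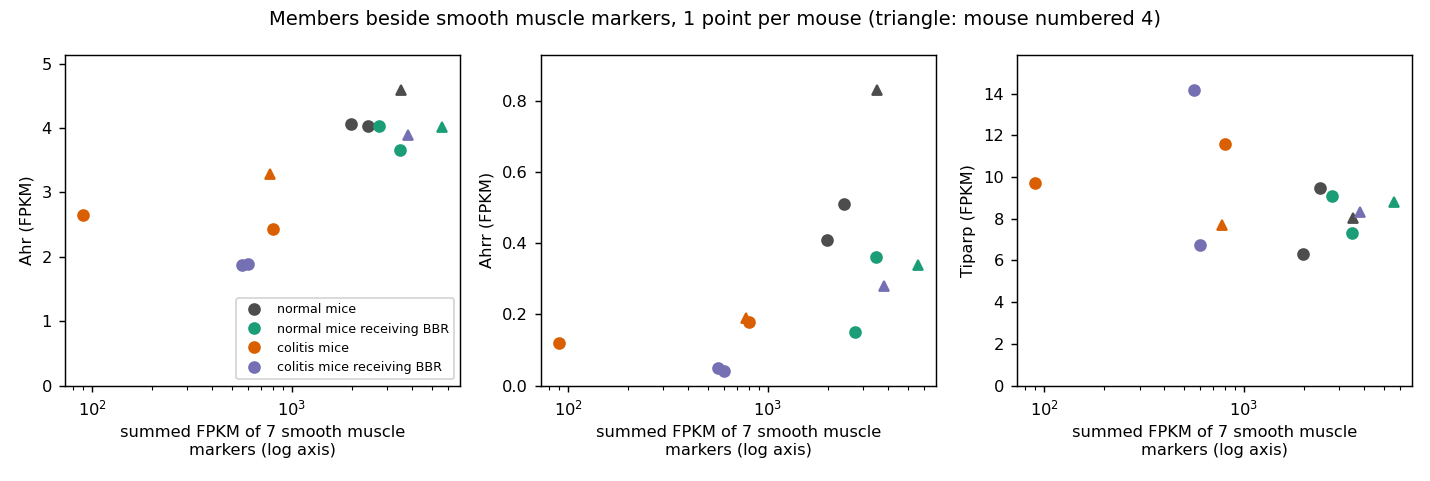
FPKM of Ahr, Ahrr and Tiparp (vertical axes, from 0) against the summed FPKM of 7 smooth muscle markers (horizontal log axis), with 1 point per mouse, colours for the 4 groups and triangles for the mice numbered 4. Mouse 4 of the colitis mice receiving BBR, with a muscle sum of 3821 FPKM, has 3.89 FPKM of Ahr, and the other mice of its group, at 561 and 603 FPKM, have 1.87 and 1.89.

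Colitis mice receiving BBR were compared with colitis mice to see whether the treatment moved the pathway. All 6 members overlapped between the groups, and no difference passed either limit. Of the 4 tested members, 0 passed the adjusted limit and 0 the unadjusted P of at most 0.05 by limma, against 0% and 6.39% of all tested genes, and 7.08% of all tested genes did not overlap.

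Ahr was at 1.89, 1.87 and 3.89 FPKM in colitis mice receiving BBR, where the third value is the mouse numbered 4. The mice numbered 2 and 3 lay below the lowest colitis mouse (2.44 FPKM), and the mouse numbered 4 lay above the highest (3.28 FPKM). The mean was 2.55 ± 1.16 against 2.79 ± 0.437 FPKM (SD, n = 3 each), with an exact permutation p of 0.6. The fitted difference was -0.20 (95% interval -0.84 to 0.45, adjusted p = 1.00 by limma), and without the mouse numbered 4 it was -0.53. The adjusted limma p of this difference ran from 0.461 to 1 over all alternatives.

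Ahrr followed the same split. It was at 0.04, 0.05 and 0.28 FPKM in colitis mice receiving BBR, against 0.12, 0.18 and 0.19 in colitis mice. The first of these, an estimated 2.69 reads, lay below the worth of 3 reads, and the other 11 of the 12 mice lay above it. The difference was -0.39 (95% interval -1.39 to 0.61, adjusted p = 1.00 by limma), with an exact permutation p of 0.4 (n = 3 each). Without the mouse numbered 4 of the treated group it was -0.85, and over the mice numbered 1 to 3 alone -0.78. The adjusted limma p ran from 0.495 to 1 over all alternatives.

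For Arnt the values of colitis mice receiving BBR were 9.16, 7.42 and 13.15 FPKM, and the highest again belonged to the mouse numbered 4. Tiparp was at 6.76, 14.17 and 8.34 FPKM, the widest spread of that gene in any group. The fitted differences from colitis mice were 0.05 for Arnt (95% interval -0.50 to 0.59) and -0.04 for Tiparp (-0.66 to 0.59), and the exact permutation p was 0.8 and 1 (n = 3 each). These intervals do not show that the groups were alike, since they reach past 0.5 on the log2 scale on both sides for Tiparp.

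Cyp1a1 was listed at 0.03, 0 and 0.06 FPKM and Cyp1b1 at 0.01, 0.12 and 0.06 FPKM in colitis mice receiving BBR. Cyp1a1 stood for an estimated 1.06, 0 and 2.98 reads, which is below 3 reads in all 3 mice. The exact permutation p against colitis mice was 1 for Cyp1a1 and 0.8 for Cyp1b1 (n = 3 each).

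The ratio of Arnt to Ahr was highest in this group, at 4.06 ± 0.738, against 3.38 ± 0.294 in colitis mice and 3.06 ± 0.314 in normal mice receiving BBR (SD, n = 3 each). The range in colitis mice receiving BBR, 3.38 to 4.85, overlapped that of colitis mice, which began at 3.13. The 2 values of a ratio share a mouse, and no test was run on it.

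Mouse 4 of the colitis mice receiving BBR stood apart from its group also in other genes. The 5 neutrophil markers summed to 2.51 FPKM in it and to 197 and 217 FPKM in the other mice of its group, against 0.26 to 2.03 FPKM in normal mice. Its Ahr, Arnt and Ahrr were the highest of the group. The colitis mouse numbered 4 likewise had the lowest neutrophil sum of its group, 45.0 FPKM against 474 and 492. That colitis mouse and the normal mouse numbered 4 were also the highest of their groups for Ahr, Arnt and Ahrr.

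Normal mice receiving BBR were compared with normal mice to see the treatment alone. Ahrr was lower with no overlap, at 0.15, 0.36 and 0.34 FPKM against 0.51, 0.41 and 0.83. The difference was -0.84 (95% interval -1.84 to 0.16, adjusted p = 1 by limma), and the exact permutation p was 0.1 (n = 3 each), the smallest possible. The same gene thus lay lower than in normal mice in each of the other 3 groups, though all 3 comparisons share the same normal mice. Of the tested members, 1 of 4 was lower without overlap, against 5.46% of all tested genes lower and 9.62% in either direction.

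The other members of the pathway overlapped between these groups. Ahr was at 4.03, 3.66 and 4.01 FPKM in normal mice receiving BBR, with a difference of -0.11 (95% interval -0.76 to 0.53) and an exact permutation p of 0.2 (n = 3 each). Arnt was at 10.94, 11.43 and 13.36 FPKM with a difference of -0.03, and Tiparp at 9.10, 7.33 and 8.81 FPKM with a difference of 0.09. Cyp1a1 was listed at 0.03, 0.06 and 0.07 FPKM, under the highest 2 normal mice and around the lowest, with an exact permutation p of 0.3 (n = 3 each). Set against the normal mouse of the same number, the mouse receiving BBR was lower in 3 of 3 pairs for Cyp1a1, Ahrr and Arnt. It was lower in 2 of 3 for Ahr and Cyp1b1, with the remaining pair equal, and in 1 of 3 for Tiparp. The share of all tested genes lower in 3 of 3 pairs was not computed, so these counts describe the pairs only. Cyp1a1 in the mice receiving BBR stood for an estimated 1.04, 2.08 and 3.22 reads. Cyp1b1 was listed at 0.03, 0.02 and 0.03 FPKM, against 0.04, 0.02 and 0.26 in normal mice. By limma, 0 members passed the adjusted limit and 0 the unadjusted P of at most 0.05, against 0% and 1.36% of all tested genes.

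Colitis mice receiving BBR were also set against normal mice, to see how far the treated group lay from health. Ahr and Ahrr were lower in all 3 treated mice, with no overlap. The difference was -0.79 with a standard error of 0.30 for Ahr (95% interval -1.43 to -0.14, adjusted p = 0.224 by limma). For Ahrr it was -1.73 with a standard error of 0.46 (95% interval -2.73 to -0.73, adjusted p = 0.199 by limma). Its size depended on the pseudocount, from -0.49 with a pseudocount of 1 to -2.57 with 0.01, and the treated mice numbered 2 and 3 stood at an estimated 2.69 and 3.38 reads. Both exact permutation tests gave p = 0.1 (n = 3 each). Cyp1a1, at 0.03, 0 and 0.06 FPKM against 0.06, 0.31 and 0.47, gave an exact permutation p of 0.2 (n = 3 each).

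Whether these differences passed turned on mouse 4 of the treated group. Without it, the difference was -1.13 for Ahr (adjusted p = 0.0200 by limma) and -2.19 for Ahrr (adjusted p = 0.0159 by limma), and both were past the limit, as were 18.9% of all tested genes in that fit. The value for Ahrr then rests on the treated mice near the floor of 3 reads. Over the mice numbered 1 to 3 alone it was -1.07 for Ahr (adjusted p = 0.0371 by limma) and -1.94 for Ahrr (0.0327), where 14.1% of all tested genes passed. Over all alternatives the adjusted p ran from 0.0200 to 0.682 for Ahr and from 0.0159 to 0.504 for Ahrr. The smooth muscle sum was 561 and 603 FPKM in the mice that remained, against 1971 to 3498 FPKM in normal mice, and its part was not tested.

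With all 12 mice, 0 of the 4 tested members passed the adjusted limit of limma in this comparison, against 0.0196% of all tested genes. At the unadjusted P of at most 0.05, 2 of 4 were lower, against 18.3% of all tested genes lower and 20.1% in either direction. The same 2 members did not overlap, against 20.8% and 22.7%. The median of all tested genes was -0.42, and relative to it Ahr lay at -0.37, Ahrr at -1.31, Arnt at 0.09 and Tiparp at 0.66. After quantile normalization the differences were -0.20 for Ahr, -1.25 for Ahrr, 0.05 for Arnt and 0.64 for Tiparp, so that the sign for Arnt turned.

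The interaction asks whether BBR shifted a gene by another amount in colitis mice than in normal mice. It was -0.09 for Ahr, 0.45 with a standard error of 0.65 for Ahrr, 0.08 for Arnt and -0.13 for Tiparp on the log2 scale. By limma 0 of the 4 members passed the adjusted limit (all adjusted p = 1.00) and 0 the unadjusted P of at most 0.05, against 0% and 2.42% of all tested genes. An effect of BBR that differed between normal and colitis mice was not detectable with 3 mice per group.

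Across the 12 mice, Ahr and Ahrr went together, with a Pearson r of 0.87 and a Spearman rho of 0.82 of the log2 values, and Ahr and Arnt with an r of 0.87. The deviations from the group means gave an r of 0.75 for the first pair and 0.86 for the second. Tiparp went the other way, with an r of -0.43 to Ahr and -0.62 to Arnt, and of -0.29 and -0.55 by the deviations. These are descriptions over 12 mice that share 4 groups and the split of the mice numbered 4, in which Arnt was the highest of its group in 4 of 4 groups, Ahr and Ahrr in 3 and Tiparp in 0.

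The genes whose pattern was most like that of each member were sought among 11943 genes with a mean of at least 1 FPKM, by Pearson r of the log2 values over the 12 mice. For Ahr they were Gid4 (r = 0.987), Lmna (0.985), which encodes the nuclear lamins A and C, and Foxo4 (0.984), a forkhead transcription factor. For Ahrr they were Wdr6 (0.962), Miga1 (0.947) and Sdc4 (0.945). For Arnt they were Smarcc2 (0.988), a subunit of the BAF chromatin remodelling complex, Tsc2 (0.987), a brake on mTORC1, and Tcf7l1 (0.987). For Tiparp they were Tbk1 (0.910), a kinase of innate immune signalling, Lrrfip1 (0.903) and Ppm1j (0.862). Within the 8 mice numbered 1 to 3, r lay between 0.859 for Ppm1j and 0.988 for Lmna.

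By deviations from the group means, which leave out the differences between groups, the closest genes to Ahr were Phf3 (r = 0.983), Mcl1 (0.980) and Rftn2 (0.973). Those to Ahrr were Wdr6 (0.960), Gnb4 (0.957) and Traf5 (0.953), those to Arnt were Epn1 (0.992), Ankrd52 (0.991) and Gsk3a (0.991), and those to Tiparp were Nipal2 (0.923), Lrrfip1 (0.920) and Tut7 (0.914). Wdr6 and Lrrfip1 were thus named by both measures. Within the 8 mice numbered 1 to 3, r of the log2 values of these pairs lay between 0.833 (Tut7) and 0.984 (Rftn2). That r keeps the differences between groups in, and r of the deviations was not computed over these 8 mice.

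Beyond the 6 members, 5 lists of genes around the receptor were counted. Across them, 0 genes passed the adjusted limit of limma in any of the 5 comparisons in the fit without a replicate block. With the replicate number as a block, where 4.79% of all tested genes passed it in colitis against normal mice, Scin, Cyp2s1 and Ido1 were among them. The counts below are at an unadjusted P of at most 0.05, which in colitis against normal mice held for 5.56% of all tested genes as higher and 15.9% as lower.

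The other genes of the receptor's battery take in further drug-metabolizing enzymes and related targets. Of 11 listed genes 10 were tested, with fitted differences above 0 for 4 and below 0 for 6 in colitis against normal mice. At the unadjusted limit 0 were higher and 4 lower, and the median difference was -0.66 against -0.32 over all tested genes. Among the 4 was Aldh3a1, whose mean in colitis mice (0.0167 FPKM) lay under the filter, and its call is not read as a result. Cyp1a2 was not analysed here. Scin, an actin-severing protein also induced by the receptor, was at 66.7 to 89.3 FPKM in normal mice and 27.5 to 52.9 in colitis mice, a difference of -1.17 (adjusted p = 0.0647 by limma). Cyp2s1, an epithelial cytochrome, was at 60.0 to 77.5 FPKM against 7.39 to 39.3, a difference of -1.75 (adjusted p = 0.133 by limma). Aldh3a1, an aldehyde dehydrogenase, was at 0.44 to 0.79 FPKM in normal mice and was listed at 0, 0 and 0.05 in colitis mice, too low there for a fold. The fourth gene was Nqo1, at 14.6 to 34.7 FPKM against 8.95 to 12.7. Ugt1a6a and Ugt1a6b share exons, and Ugt1a6b split by mouse number, at 6.37 to 16.6 FPKM in the mice numbered 4 and at most 0.33 in the others, so that both are uncertain.

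Among these targets, Scin alone passed the unadjusted limit with BBR. It was at 91.8, 51.4 and 58.5 FPKM in colitis mice receiving BBR against 27.5, 52.9 and 29.9 in colitis mice, a difference of 0.89 (adjusted p = 0.539 by limma). The groups overlapped, since the lowest treated mouse lay below the highest colitis mouse. Its interaction was 1.04 (adjusted p = 1.00 by limma). In colitis mice receiving BBR against colitis mice, the list's median was 0.40 against -0.09 over all tested genes. Differences were above 0 for 7 genes and below 0 for 3, and some rested on 1 treated mouse. Ugt1a6a was at 51.49 FPKM in the mouse numbered 2 against 3.21 and 9.24 in the others of its group. Nqo1 was at 30.85 FPKM in it against 11.78 and 12.48. The list had 1 gene higher and 0 lower at the unadjusted limit, where 1.19% of all tested genes were higher and 5.2% lower. In colitis mice receiving BBR against normal mice, Aldh3a1 and Cyp2s1 were lower at the unadjusted limit, which was 2 of 10 against 18.3% of all tested genes. Cyp2s1 was at 13.49, 23.33 and 57.73 FPKM in the treated mice, the highest being the mouse numbered 4, and was no longer past that limit after quantile normalization. Aldh3a1 was listed at 0 in 2 of the treated mice and at 0.72 FPKM in the mouse numbered 4, which is within the range of normal mice. Its call rests on the values at 0 and is not read as a result.

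**Figure D4:**
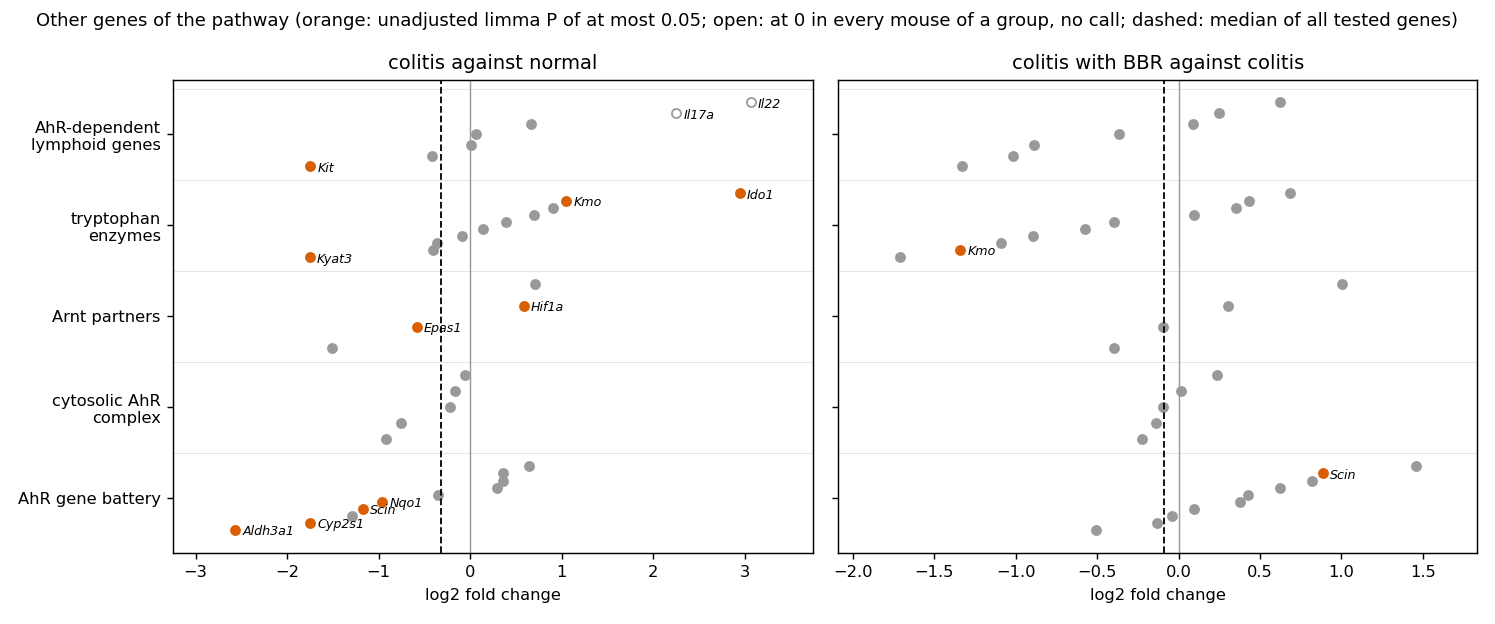
Fitted difference in log2(FPKM + 0.1) (horizontal axes) of the tested genes of 5 lists around the receptor, in colitis against normal mice (left) and colitis mice receiving BBR against colitis mice (right), with orange points for an unadjusted limma P of at most 0.05, open points for genes listed at 0 in every mouse of a compared group, which carry no call, and a dashed line at the median of all tested genes (-0.32 and -0.09). At left 4 battery genes, Epas1, Kyat3 and Kit are orange and lower, and Ido1, Kmo and Hif1a are orange and higher. Il22 and Il17a are open, and their places depend on the pseudocount. Aldh3a1, 1 of the 4 battery genes, was at 0, 0 and 0.05 FPKM in colitis mice, and its call is not read as a result. At right Scin and Kmo are orange.

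The complex that holds the receptor in the cytosol was represented by a list of 5 genes, among them the chaperones Hsp90aa1 and Hsp90ab1 and the tyrosine kinase Src. All 5 had fitted differences below 0 in colitis against normal mice, with a median of -0.22 against -0.32 over all tested genes, and 0 of 5 passed the unadjusted limit. Hsp90ab1 was lower in colitis mice receiving BBR than in normal mice, by a difference of -1.02 (adjusted p = 0.245 by limma), the only gene of this list past that limit in any comparison, and it was no longer past it with the replicate block or after quantile normalization. Of the 9 other bHLH-PAS genes that pair with or resemble Arnt, 4 were tested. Hif1a, the oxygen-labile partner, was at 60.5 to 93.9 FPKM in normal mice and 99.2 to 125 in colitis mice (difference 0.59), and Epas1, its relative in endothelium, at 40.7 to 60.4 against 26.3 to 43.2 (difference -0.58). The adjusted limma p was 0.221 and 0.189, and the unadjusted limit was lost for Hif1a with the replicate block and for Epas1 after quantile normalization. Arnt2, Sim1, Npas1 and Npas3 fell under the filter, and Sim2 was not analysed here.

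Enzymes that act on tryptophan, from which ligands of the receptor are made, lay on both sides. Of 12 listed, 10 were tested, with Tdo2 and Aadat under the filter. In colitis against normal mice 2 were higher and 1 lower at the unadjusted limit. Ido1, the first and interferon-induced step of the kynurenine path, was at 8.15, 13.75 and 7.54 FPKM in normal mice and at 68.54, 108.28 and 53.83 in colitis mice. Every colitis mouse lay above every normal mouse, with a difference of 2.95 (adjusted p = 0.108 by limma). Kmo, kynurenine monooxygenase, was at 0.15 to 0.45 FPKM against 0.47 to 0.95 (difference 1.05, adjusted p = 0.193 by limma). Kyat3, which makes kynurenic acid, was lower, at 2.73 to 4.33 FPKM against 0.65 to 1.70 (difference -1.75, adjusted p = 0.0949 by limma).

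With BBR, Kmo was the only tryptophan enzyme past the unadjusted limit, 1 of 10 tested, against 5.2% of all tested genes lower. Kmo was at 0.12 to 0.38 FPKM in colitis mice receiving BBR against 0.47 to 0.95 in colitis mice. The groups did not overlap, as for 7.08% of all tested genes in either direction. The difference of Kmo was -1.34 (adjusted p = 0.554 by limma). Its interaction was -1.53 (adjusted p = 1.00 by limma). Ido1 was spread widely in colitis mice receiving BBR, at 13.88, 144.15 and 5.57 FPKM, so that 2 mice lay near the normal range and 1 above all colitis mice (difference -1.71, adjusted p = 0.848 by limma). Macrophage markers, which summed to 259 to 786 FPKM in colitis mice and 137 to 277 in colitis mice receiving BBR, moved with Kmo, and their part was not tested.

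Of 8 genes of lymphoid cells that depend on the receptor, 7 were tested and Il23r fell under the filter. Il22, the cytokine by which these cells act on the epithelium, stood at 0.78, 0.58 and 0.89 FPKM in colitis mice and was listed at 0 in the 3 normal mice. Il17a, at 0 in the same 3 mice, ranged from 0.05 to 1.27 FPKM with colitis. Both genes passed the filter only through the groups with colitis, so that no p is given for them. Kit, which marks interstitial cells of Cajal and mast cells as well as some innate lymphoid cells, was lower, at 6.55 to 7.50 FPKM in normal mice and 1.33 to 4.30 in colitis mice (difference -1.74, adjusted p = 0.0907 by limma).

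In colitis mice receiving BBR, Il22 was at 0.08, 1.97 and 0 FPKM, and the mouse with the highest Il22 was also the one with the highest Ido1 and Tiparp. No gene of this list passed the unadjusted limit against colitis mice. Against normal mice, Kit was lower at the unadjusted limit (difference -1.50, adjusted p = 0.213 by limma). Gpr15 also was, but at 0.03, 0.07 and 0.02 FPKM in the treated mice against 0.17 to 0.33 in normal mice it is too low for a fold, and it was no longer past that limit after quantile normalization. This was 2 of 7, against 18.3% of all tested genes lower. The call of Gpr15, whose mean in the treated mice (0.04 FPKM) lay under the filter, is not read as a result. In normal mice receiving BBR against normal mice, 0 genes of any of the 5 lists passed the unadjusted limit of limma, where 1.36% of all tested genes did.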

How the data were processed

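Rectal RNA of 12 mice was sequenced as single-end reads of 50 bases by the study's methods, which describe rRNA depletion, whereas the labels name another library kit. The authors aligned the reads with Bowtie2 2.2.5, estimated expression with RSEM 1.2.12 on build mm9 (per the labels), and deposited 1 value per gene and mouse. These deposited values were read as FPKM from their size and totals, since no source used here names the unit, and TPM of part of the genes cannot be told apart from it. Mice were grouped by the labels, which also give the replicate numbers (1 to 4, with 3 mice in each group). The sources used here do not say whether mice of a group shared a cage, so that p-values measure the spread between these samples.

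The 6 members and 5 lists were chosen with earlier results of these data known, and some alternatives likewise. All 6 members are named in every group, together with list genes past the unadjusted limit (at most 3 per list and comparison by P, to which Nqo1 and the pair Ugt1a6a and Ugt1a6b were added after their values were seen), list genes under the filter, and the 3 genes most like each tested member.

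Genes with a mean of at least 0.1 FPKM over the 12 mice (15315, with 24 genes at 0 everywhere among those left out) entered the fit as log2(FPKM + 0.1). The fit used R 4.3.3 and limma 3.58.1, took all 12 mice with a mean for each group, and moderated the variances with a trend on mean level. In each of 5 comparisons the Benjamini-Hochberg adjustment ran over every tested gene, with 0.05 as the limit, and the study's limit, an unadjusted P of at most 0.05, was counted beside it. Single members were tested by an exact two-sided permutation of 3 mice against 3. Read numbers and the worth of 3 reads were estimated from steps of low values with transcript lengths of GENCODE on GRCm38, and are approximate. In the replicate number pairs of normal mice and normal mice receiving BBR, all 3 correlations of deviations were above 0.1, and the block changed no call there. The alternatives changed the pseudocount (1, 0.01), the filter (a mean of 1, or no filter), the scaling (quantile, or centring each mouse on its median), the samples fitted (compared groups, mice numbered 1 to 3, or each mouse left out), the variance trend, and the blocks (replicate number, or number 4 against the rest). The fit was tested on simulated data. Promoter searches and figures ran in Python 3.11.15 (matplotlib 3.10.9, SciPy 1.17.1, pandas 2.3.3, NumPy 2.4.6).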

Additional observations from a re-analysis of the deposited data

How the results depend on the processing

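With 3 mice per group and no read counts, low members such as Cyp1a1 and Cyp1b1 are limited by depth, and a miss of the limit does not show equality. In colitis against normal mice, 1 member (Ahrr) passed the adjusted limit with a block for the mice numbered 4, where 9.22% of all tested genes passed, and 0 under the other 22 alternatives. In colitis mice receiving BBR against normal mice, 2 members (Ahr and Ahrr) passed over the mice numbered 1 to 3 alone, where 14.1% of all tested genes passed, and leaving out each mouse gave 0 to 2, the 2 coming without mouse 4 of the treated group, where 18.9% passed. In the other 3 comparisons no alternative gave a called member by limma. The causes were not tested. A filter at a mean of 1 left Ahrr untested. Over the alternatives, the number of all genes past the adjusted limit ran from 11 to 1412 in colitis against normal mice (165 as reported), from 0 to 58 in colitis mice receiving BBR against colitis mice (0), from 0 to 1 in normal mice receiving BBR against normal mice (0) and from 0 to 2895 in colitis mice receiving BBR against normal mice (3).

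The replicate numbers 1 to 3 paired the mice weakly (7 pairs of the same number, correlation of deviations 0.0777 to 0.386) and the number 4 more strongly (6 pairs, 0.357 to 0.751), against a median of -0.15 over 41 pairs of different numbers. Outside the normal groups they are taken as numbers only. With the replicate block, 0 members passed the adjusted limit in each of the 5 comparisons, Ahrr stood at -1.32 in colitis against normal mice (adjusted p = 0.0942 by limma), and 734 (4.79%) of all tested genes passed there. Among the list genes with a p given, Scin (adjusted p = 0.0104 by limma), Cyp2s1 (0.0483) and Ido1 (0.0416) were past the adjusted limit with the block in colitis against normal mice. Hif1a there and Hsp90ab1 in colitis mice receiving BBR against normal mice lost the unadjusted limit with the block. After quantile normalization Epas1 in colitis against normal mice and Hsp90ab1, Cyp2s1 and Gpr15 in colitis mice receiving BBR against normal mice lost it.

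The differences for Ahr, Ahrr, Arnt and Tiparp in colitis against normal mice did not turn under any alternative that gave a value, with ranges of -0.71 to -0.21, -1.74 to -0.44, -0.57 to -0.04 and 0.12 to 0.61. Small differences turned sign elsewhere. With quantile normalization these were Ahr (0.00758) and Tiparp (0.081) in colitis mice receiving BBR against colitis mice, Arnt in colitis mice receiving BBR against normal mice (0.049) and the interaction of Ahr (0.068). With centring on the median they were Tiparp in colitis mice receiving BBR against colitis mice (0.11), Arnt in normal mice receiving BBR against normal mice (0.000749) and in colitis mice receiving BBR against normal mice (0.16), and the interaction of Ahr (0.030). The replicate block gave 0.000832 for Tiparp in colitis mice receiving BBR against colitis mice, and the mice numbered 1 to 3 alone gave -0.058 for the interaction of Ahrr. Leaving out each mouse, Tiparp ran from -0.34 to 0.19 and Arnt from -0.18 to 0.23 in colitis mice receiving BBR against colitis mice. In normal mice receiving BBR against normal mice, Tiparp ran from -0.062 to 0.23 and Arnt from -0.12 to 0.066. In colitis mice receiving BBR against normal mice, Tiparp ran from -0.062 to 0.47. The interaction ran from -0.42 to 0.086 for Ahr, -0.013 to 0.71 for Ahrr, -0.14 to 0.27 for Arnt and -0.43 to 0.094 for Tiparp.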
